A study of Mus musculus with 17 samples.

Results

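The circadian clock genes Arntl, Clock, Per1, Per2, Per3, Cry1, Cry2, Nr1d1, Nr1d2 and Dbp were described across all 17 RNA-seq libraries of a mouse study of extrahepatic cholangiocarcinoma, which is cancer of the duct system that drains bile between liver and gut. These 10 genes were chosen by gene name from the 43346 genes of the deposited table, and each name matched 1 gene. All samples were labelled as bile duct tissue, and the labels give no genotype, strain, treatment, age, sex or hour of collection. The count columns are named by a code and a number joined to it (R62848_1, for example). There are 6 codes, 5 with 3 libraries and 1, R63494, with 2. No source used here explains these codes, and the column names match no sample title. A difference between codes is therefore no comparison of conditions, and nothing says that libraries of a code came from separate animals. P-values of differences between codes set the spread between codes against the spread among libraries of a code, part of which may be technical. If the libraries of a code share an animal, these p-values do not account for the spread between animals. P-values of correlations come from rearranging the same libraries or code means.

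The circadian clock is a loop of transcription factors that runs in nearly every cell and sets daily rhythms of gene expression. ARNTL (also called BMAL1) and CLOCK bind E-box sequences and activate the Per and Cry genes, whose proteins return to the nucleus and repress them. The same pair activates Nr1d1 and Nr1d2, which encode the nuclear receptors REV-ERB alpha and beta, and these repress Arntl through sites called ROREs. Dbp is a clock output gene whose protein activates genes with D-box sites, Per3 among them. In mouse organs outside the brain, Arntl RNA is high when Nr1d1, Dbp and Per3 RNA are low, Per2 follows Dbp, and Cry1 follows later still.

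Library totals were 16400556 to 24152314 counts, with a median of 17886041. All 10 cholangiocyte markers of the marker list, keratins and Epcam among them, passed the filter on low counts. Their summed level was 6403 to 9160 CPM, the counts of a gene scaled to a common library size. The R62850 libraries stood apart by pancreatic acinar genes, whose 10 listed members summed to 5879, 23327 and 133365 CPM there and to 40.6 to 159 CPM in the other 14 libraries. The 6 hepatocyte markers summed to 164 to 883 CPM, most of it from Ttr, and Cps1 stayed at or below 0.857 CPM. In bulk tissue, fewer cells of a type and less RNA per cell cannot be told apart.

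The promoters of 9 of the 10 genes (all but Per2) were found in RefSeq (build GRCm38.p6), as 13 windows from 250 bases before to 50 bases after a start. They were searched on both strands for the E-box CACGTG, the D-boxes TTATGTAA and TTACGTAA and a RORE, the half-site AGGTCA led by 2 As, any base and a T. CACGTG and TTACGTAA read the same on both strands, and no matches overlapped. Shown is the stretch around the match, not the whole window, for each of the 4 windows with a match. These motifs are the kinds of site through which the loop above works. Capitals mark the matched motif.
Per3, D-boxes starting 205 and 158 bases before the start, chr4:151044771-151044915, minus strand: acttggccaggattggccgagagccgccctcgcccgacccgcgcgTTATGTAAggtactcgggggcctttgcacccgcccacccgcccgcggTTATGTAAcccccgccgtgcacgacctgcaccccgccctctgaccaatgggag
Arntl, RORE starting 27 bases after a start, chr7:113207530-113207555, plus strand: aaggcagaAAGTAGGTCAgggacgga
Cry1, E-box starting 60 bases before the start, chr10:85185064-85185159, minus strand: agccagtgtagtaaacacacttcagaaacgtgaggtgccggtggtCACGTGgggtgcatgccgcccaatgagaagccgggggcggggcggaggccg
Per1, E-box starting 166 bases before a start, chr11:69098738-69098833, plus strand: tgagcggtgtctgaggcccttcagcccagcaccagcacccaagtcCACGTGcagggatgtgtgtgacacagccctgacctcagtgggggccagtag
Of 32851 promoters of this length, 7.15% held CACGTG, 0.938% TTATGTAA, 0.119% TTACGTAA and 0.219% the RORE. A match is a description of the letters and not of a bound site, and the other promoters may hold such sites outside these windows.

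In the deposited table (build mm10) all 10 are protein-coding genes. Arntl lies at chr7:113207465-113314122, Clock at chr5:76212177-76304548 and Dbp at chr7:45705088-45710155. Per1 lies at chr11:69095217-69109960, Per2 at chr1:91415982-91459324 and Per3 at chr4:151003652-151044665. Cry1 lies at chr10:85131702-85185054 and Cry2 at chr2:92403646-92434043, with Nr1d1 at chr11:98767932-98775333 and Nr1d2 at chr14:18204054-18239127.

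All 10 clock genes were detected in every library, with Dbp and the REV-ERB gene Nr1d1 highest per length. On the RPKM scale (CPM per kilobase of the table's gene length), median levels were 44.5 for Dbp, 42.8 for Nr1d1, 21.4 for Nr1d2, 19.5 for Per1 and 14.1 for Per2. Lower medians were seen for Per3 (7.41 RPKM), Clock (6.50 RPKM), Cry2 (5.08 RPKM), Cry1 (4.94 RPKM) and Arntl (2.19 RPKM). Dbp and Nr1d1 were neighbours, and the library range of Nr1d1, 19.5 to 61.2 RPKM, lay inside the wider range of Dbp, 15.4 to 89.1 RPKM. Likewise the range of Cry2, 3.80 to 6.09 RPKM, lay inside the wider range of Cry1, 2.08 to 9.46 RPKM. Arntl rested on the fewest reads, 48 to 335 counts in a library. Its lowest library, R63496_1, had 48 counts, with an exact Poisson interval (95%) of 35.4 to 63.6 that covers counting error only.

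The clock genes differed between codes, which held 66.8% (Cry2) to 93.8% (Per2) of the sum of squares of a gene's log2 CPM. Of all genes tested, 59.1% had a smaller share between codes than Cry2 and 98.3% a smaller share than Per2. In edgeR's quasi-likelihood F test between the 6 codes, which has no direction, 10 of 10 clock genes passed (adjusted p below 0.05), against 48.7% of all genes tested (7692 of 15795). The median range of code means was 1.32 on the log2 scale for the clock genes and 0.58 for all genes tested. Per2 spanned the widest range, 2.40 (5.29-fold), followed by Dbp (2.14, 4.42-fold), Arntl (2.10, 4.28-fold) and Cry1 (1.69, 3.23-fold). Of all genes tested, 2.82% had a wider range than Per2, and 49.9% had a wider range than Cry2. Cry2 had the narrowest range of the 10, 0.58 (1.49-fold), and its adjusted p of 0.0129 was lost without R62850 (0.0617) or without R63289 (0.0855). The other 9 genes stayed past the threshold in each of the 28 alternatives.

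**Figure D1:**
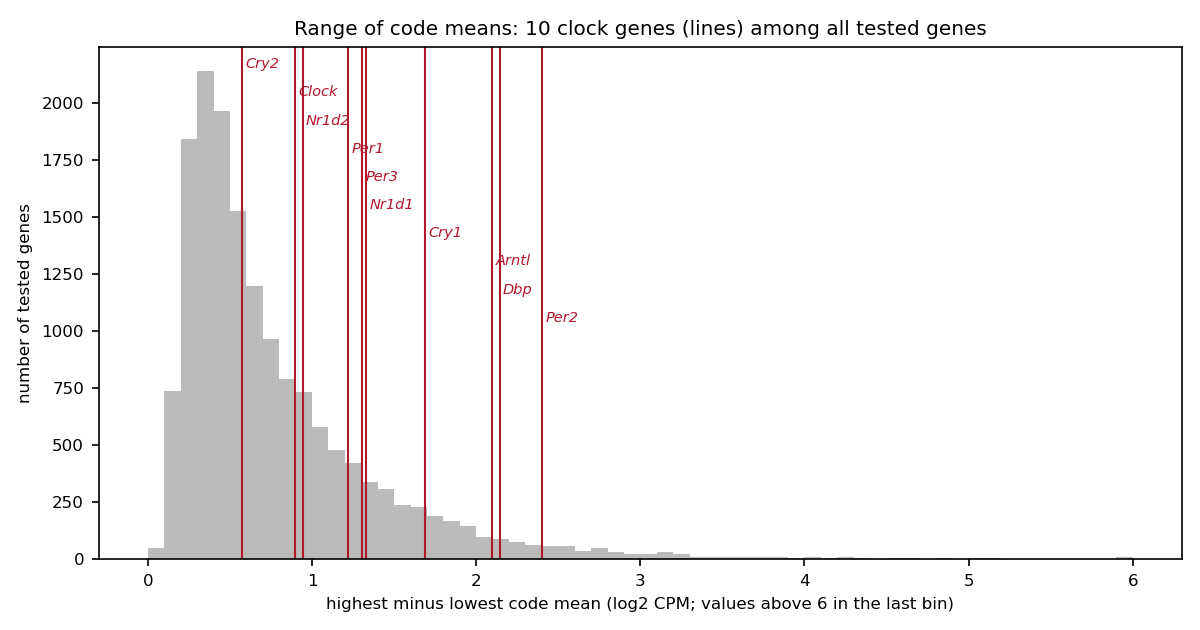
Grey bars count the 15795 tested genes by the highest minus the lowest of the 6 code means (log2 CPM), and red lines mark the 10 clock genes. Cry2 lies at 0.58, near the median of all genes, and Per2 lies farthest out at 2.40.

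**Figure D2:**
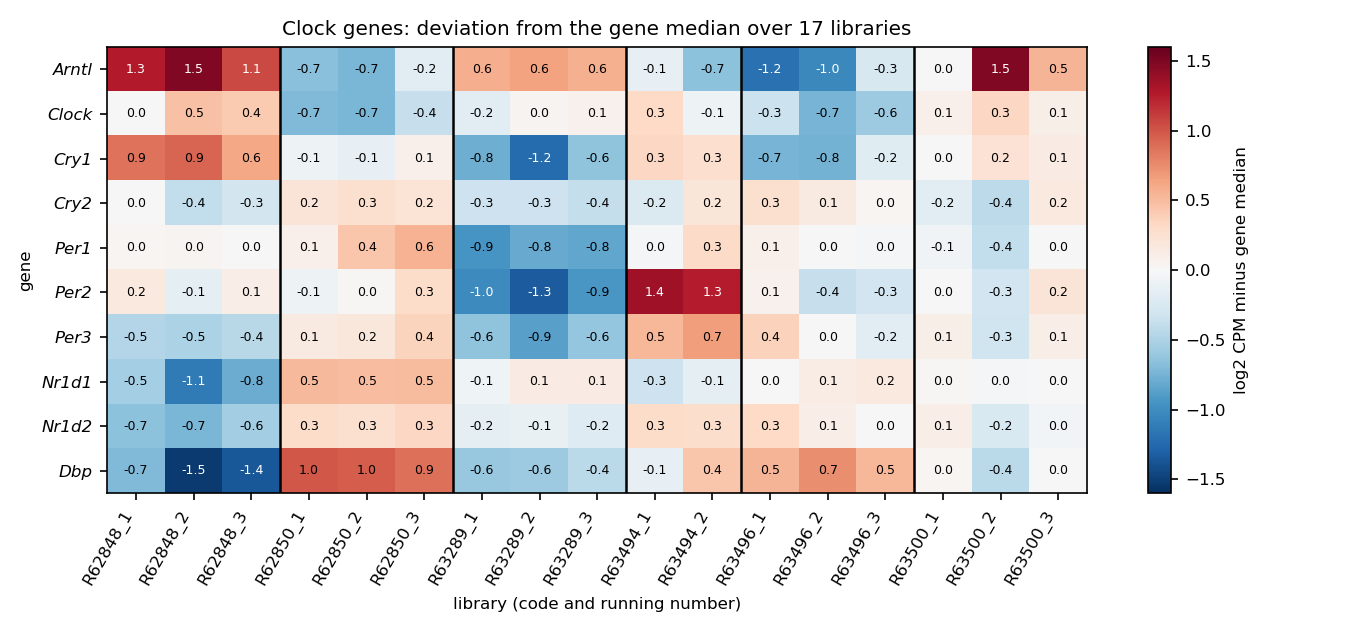
Each cell gives a gene's log2 CPM in a library minus that gene's median over 17 libraries, with genes as rows, libraries as columns and vertical lines between codes. Arntl is high and Dbp low in R62848, the reverse holds in R62850, the Per genes are low in R63289, and Per2 is high in R63494. Colours end at 1.6 in either direction.

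Of the activators Arntl and Clock, Arntl varied more. It stood at 15.5, 17.9 and 13.3 CPM in the R62848 libraries and at 9.53, 9.99 and 9.43 CPM in R63289. In R62850 it was at 3.94, 3.77 and 5.62 CPM, in R63494 at 5.81 and 3.99 CPM, and in R63496 at 2.71, 3.05 and 5.29 CPM. These 3 codes lay below R63289 and R62848 without overlap. R63500 was spread, at 6.35 and 9.27 CPM in R63500_1 and R63500_3 and 17.9 CPM in R63500_2, as high as the highest R62848 library. Across codes Arntl spanned a log2 range of 2.10 (edgeR, adjusted p = 0.000109), and without R62848 it spanned 1.48 (adjusted p = 0.00263).

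Clock, whose protein pairs with ARNTL, followed a shallower pattern. Its code means were 60.2 ± 10.1 CPM in R62848, 54.8 ± 5.69 in R63500, 53.5 ± 10.5 in R63494, 48.1 ± 4.10 in R63289, 33.2 ± 4.70 in R63496 and 32.2 ± 4.75 in R62850 (SD, n = 3 libraries, n = 2 for R63494). R62848, R63500 and R63494 overlapped one another, and R63289 overlapped with R62848 and R63494. R63496 and R62850 also overlapped, and their highest library, at 38.2 CPM, was below the lowest of the other 4 codes, at 43.4 CPM. Its log2 range of code means was 0.90, less than that of Arntl (edgeR, adjusted p = 0.000109). In R63494, Arntl was low while Clock was in this upper group.

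The fibroblast and matrix genes moved with Arntl in part. Their 7 members, all detected, summed to 12148 to 15381 CPM in R62848 and R63500 and to 3039 to 7628 CPM in the other 4 codes. All but Dcn had higher means in both R62848 and R63500 than in any other code, though Lum differed little (375 CPM in R63500, 349 CPM in R63496). Dcn was also highest in R62848 (828 CPM). In R63500 it averaged 592 CPM, below R63289 (730 CPM), R62850 (705 CPM) and R63496 (621 CPM). R63289, with Arntl above 9 CPM in each library, had 4929 to 6574 CPM of these genes, and R63500_1, with Arntl at 6.35 CPM, had 14773 CPM. The 4 endothelial markers summed to 329 to 353 CPM in R62848, 237 to 293 CPM in R63500 and 163 to 211 CPM elsewhere. Pecam1, Cdh5 and Kdr followed this sum. Vwf did not, with means of 85.6 CPM in R63494, 84.8 CPM in R62848 and 65.9 CPM in R63500. The part of either list in the level of Arntl was not tested.

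Dbp, the clock output factor, had the second widest range of the 10 genes, after Per2. It stood at 262, 257 and 242 CPM in R62850 and at 191, 219 and 189 CPM in R63496. In R63494 it was at 119 and 178 CPM, in R63500 at 133, 97.0 and 131 CPM, in R63289 at 86.0, 87.4 and 97.1 CPM, and in R62848 at 80.7, 45.5 and 51.3 CPM. R62850 and R63496 overlapped with no other code, nor did R62848, whereas the lowest R63500 library lay within the range of R63289. The highest and lowest code means differed 4.42-fold (edgeR, adjusted p = 6.22e-06), and 2.83-fold without R62848 (adjusted p = 2.12e-06). The acinar genes, also highest in R62850, differed widely among its libraries (5879 to 133365 CPM), while Dbp stayed between 242 and 262 CPM. The hepatocyte markers summed to 514 to 883 CPM in R62850 and to 164 to 294 CPM in R62848. Most of this was Ttr, with means of 686 CPM in R62850 and 216 CPM in R62848. Cyp2e1 went the same way, at 24.7 and 5.07 CPM. Alb went the other way, with a mean of 14.5 CPM in R62848 and a lower mean in R62850. So did the low-count genes Apoa1, Serpina1c and Cps1. Whether the acinar or hepatocyte genes had a part in the level of Dbp was not tested.

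Nr1d1 and Nr1d2, the REV-ERB repressors of Arntl, had the same highest and lowest codes as Dbp. Nr1d1 averaged 187 ± 1.14 CPM in R62850 and 75.4 ± 15.3 CPM in R62848 (SD, n = 3 each), and the 4 other codes had means of 112 to 140 CPM. Nr1d2 was at 128 to 135 CPM in R62850 and at 64.5 to 72.9 CPM in R62848. In R63494 the genes parted: Nr1d2 was at 131 and 130 CPM, as high as in R62850, whereas Nr1d1 was at 105 and 119 CPM, the lowest levels outside R62848. Both passed the edgeR test (adjusted p = 7.22e-07 for Nr1d1 and 1.87e-06 for Nr1d2).

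Some reads of these genes cannot be told apart from those of a neighbour, because no source used here gives the strand setting of the counting. In GENCODE M21, Nr1d1 shares 263 exon bases with Thra on the opposite strand, Dbp shares 539 with Sphk2, Cry2 shares 295 with D930015M05Rik and Arntl shares 33 with Gm45355. Thra, a thyroid hormone receptor gene, spanned 48.2 to 95.7 CPM, and Sphk2, a sphingosine kinase gene, 73.6 to 151 CPM. Both were also highest in R62850 and lowest in R62848. Their log2 ranges of code means were 0.67 for Thra and 0.89 for Sphk2, against 1.33 for Nr1d1 and 2.14 for Dbp.

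**Figure D3:**
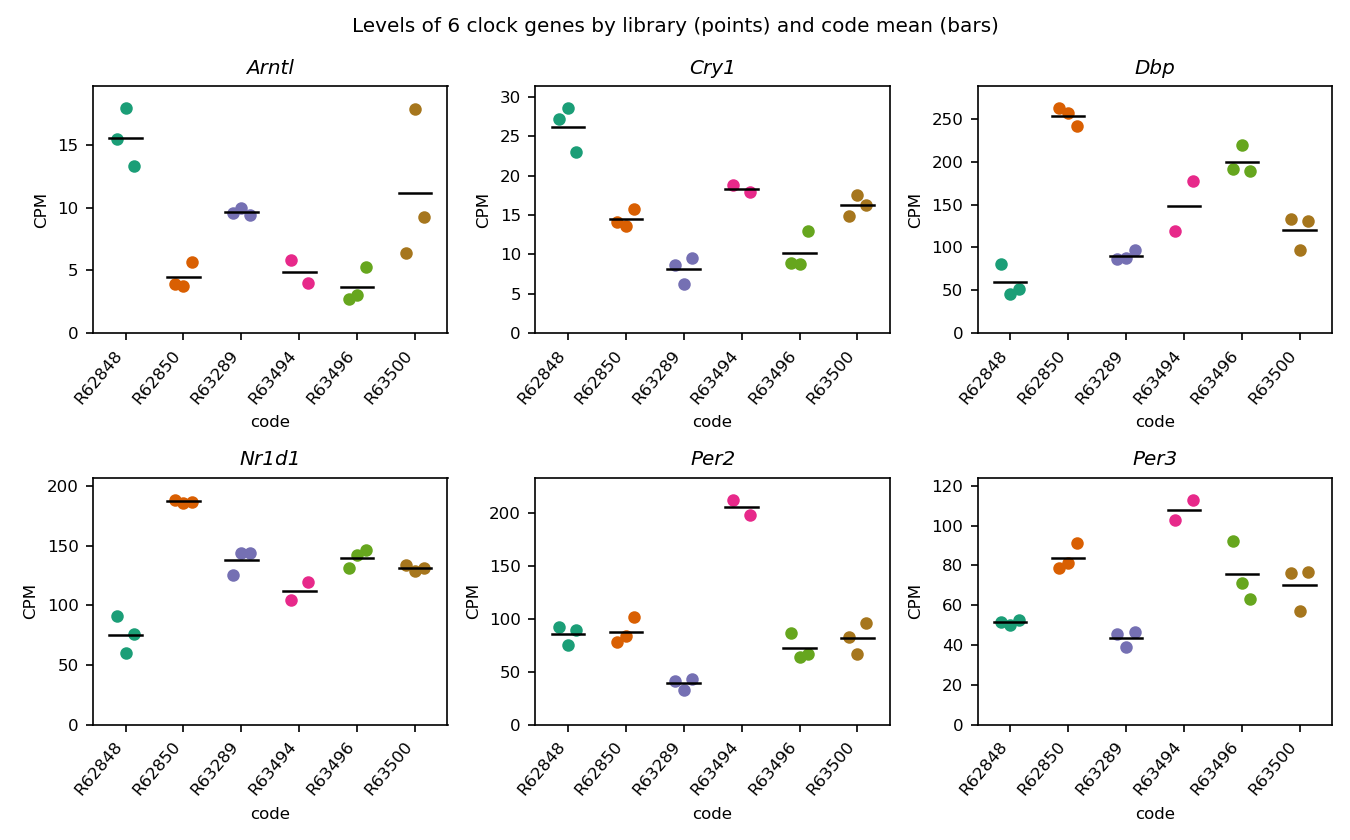
CPM of 6 clock genes in every library (points) by code, with black bars at the code means and a linear axis from 0. Arntl is highest and Dbp lowest on average in R62848, and Per2 in the 2 libraries of R63494, 212 and 198 CPM, lies above all other libraries.

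Among the Per genes, which encode the repressors of CLOCK and ARNTL, Per2 changed most. It was at 212 and 198 CPM in R63494 and at 40.7, 32.9 and 43.2 CPM in R63289. In the other 12 libraries it lay between 64.0 and 102 CPM, so neither R63494 nor R63289 overlapped with the rest. The difference between codes (edgeR, adjusted p = 7.83e-08) rested on both: without R63494 the log2 range was 1.18 (adjusted p = 0.000106), and without R63289 it was 1.51 (adjusted p = 5.87e-06).

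Per1 and Per3 shared the low levels in R63289. Per1 was at 57.3, 62.8 and 61.8 CPM there and at 83.6 to 161 CPM in the other 14 libraries. Its log2 range of code means was 1.22 (edgeR, adjusted p = 3.35e-06), and 0.51 without R63289 (adjusted p = 0.0236). Per3 was at 45.6, 39.1 and 46.4 CPM in R63289 and at 50.3 to 52.5 CPM in R62848. Its highest levels were 103 and 113 CPM in R63494, and the remaining 9 libraries lay between 57.3 and 92.3 CPM (edgeR, adjusted p = 3.27e-06). Per2 exceeded Per1 in CPM only in R63494, where the log2 ratio of Per1 to Per2 was -0.97 and -0.55, against 0.20 to 0.93 in the other libraries.

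Heat shock genes, which encode chaperones, had their highest summed level in R63494, although Hspb1 was highest on average in R63500 (305 CPM, against 166 CPM in R63494). That mean of Hspb1 was raised by a single library, R63500_2, at 669 CPM. The 9 listed heat shock genes, all detected, all passed the edgeR test (9 of 9, against 48.7% of all genes tested). They summed to 6248 and 5815 CPM in R63494, to 1604 to 1665 CPM in R63289 and to 1455 to 1753 CPM in R63496. Hspa1a had the widest range of code means among them, 6.06 on the log2 scale. Per2 in R63496 was at 64.0 to 86.6 CPM, above R63289 at a like sum of heat shock genes. R63500_2, with a heat shock sum of 5024 CPM against 2823 and 2843 CPM in R63500_1 and R63500_3, had Per2 at 66.6 CPM, against 82.7 and 95.5 CPM. The part of the heat shock genes in the level of Per2 in R63494 was not tested.

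Cry1 and Cry2 encode the cryptochromes, which repress together with the PER proteins. Cry1 was at 27.1, 28.5 and 23.0 CPM in R62848, above all other libraries, and at 8.62, 6.28 and 9.49 CPM in R63289. The R63496 libraries lay above R63289_2 and below the other 8 libraries, which had 13.6 to 18.8 CPM (edgeR, adjusted p = 2.85e-06). Cry2 stayed between 24.0 and 38.5 CPM over all libraries. The log2 ratio of Cry1 to Cry2 was -0.07 ± 0.26 in R62848 and -1.81 ± 0.42 in R63496 (SD, n = 3 each), so both genes had near equal counts in R62848. Arntl and Cry1 parted in R63289, where Arntl was above its median over all libraries in each library and Cry1 below its own.

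Arntl was also set against the genes of opposite phase by ratios within each library, which do not depend on library scaling. Arntl had fewer counts than Dbp, Nr1d1 and Per3 in every library, and the size of the ratio differed between libraries. Dbp had 2.54 times the counts of Arntl in R62848_2 and 71.8 times in R63496_2. The log2 ratio of Arntl to Dbp averaged -1.88 ± 0.52 in R62848, -3.21 ± 0.12 in R63289, -3.54 in R63500, -4.89 ± 0.78 in R63494, -5.78 ± 0.56 in R63496 and -5.82 ± 0.37 in R62850 (SD, n = 3, n = 2 for R63494). R63500 was spread from -4.37 to -2.43. R62848 overlapped with no other code, R63500 overlapped with R63289 and R63494, and R63494, R63496 and R62850 overlapped one another. Over all libraries the ratio spanned 4.77 log2 units, against 3.85 for Arntl to Nr1d1 and 3.55 for Arntl to Per3. Of the ratios computed, those without Arntl spanned 0.96 (Nr1d1 to Nr1d2) to 3.96 (Cry1 to Dbp). A wide span was therefore not particular to pairs with Arntl.

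**Figure D4:**
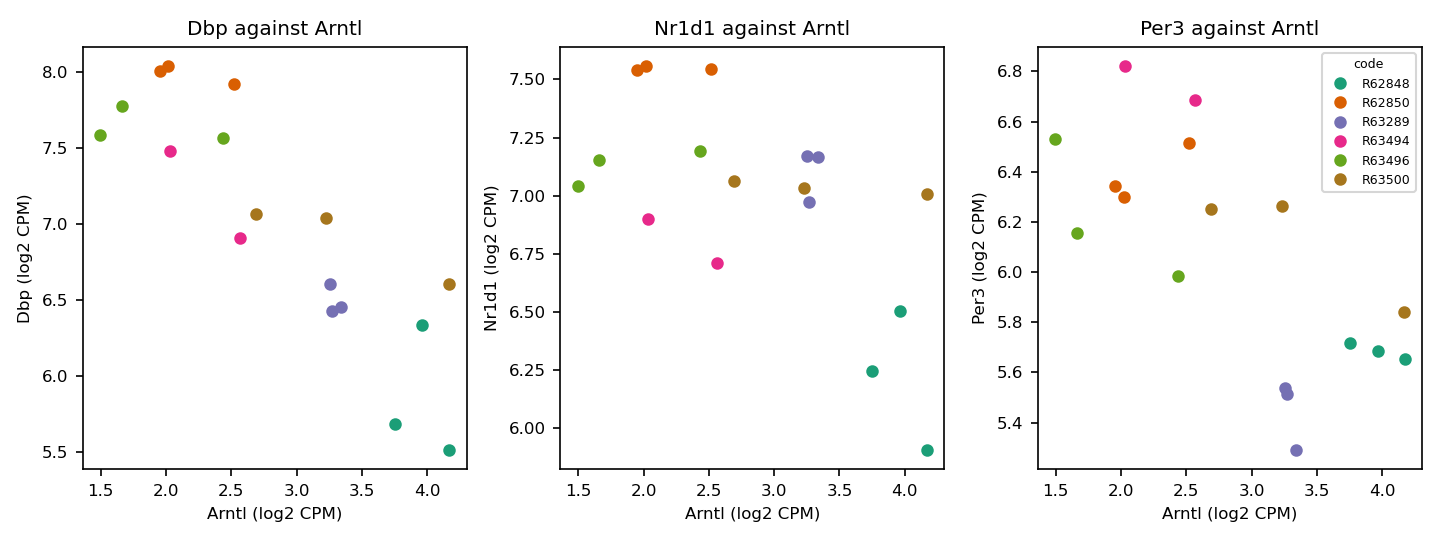
Dbp, Nr1d1 and Per3 (log2 CPM, vertical axes) against Arntl (log2 CPM, horizontal axes), with 1 point per library coloured by code. Dbp is low where Arntl is high, and the Nr1d1 means of the 4 codes other than R62848 and R62850 lie between 112 and 140 CPM.

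Correlations were computed over the 6 code means and, apart from that, over deviations from the code means, because libraries of a code resemble each other. Over code means Arntl had an r of -0.92 with Dbp (exact permutation p = 0.0125, rho = -0.89, exact p = 0.0333), and r was -0.84 without the 2 codes farthest from the median of Arntl. The adjusted p over the 45 pairs of clock genes was 0.201 (exact permutation). The r of Arntl was -0.66 with Nr1d1 (exact permutation p = 0.143, adjusted p = 0.288), -0.72 with Per3 (exact permutation p = 0.128, adjusted p = 0.288) and 0.80 with Clock (exact permutation p = 0.0639, adjusted p = 0.240). Without the 2 farthest codes these became -0.29, -0.77 and 0.59, so the relation with Nr1d1 rests on those codes. The rho was -0.77 with Nr1d1 (exact p = 0.103), -0.60 with Per3 (exact p = 0.242) and 0.89 with Clock (exact p = 0.0333), with adjusted p of 0.188 to 0.403 for the rho of the 4 pairs.

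Within codes the r of Arntl was -0.53 with Dbp (exact permutation p = 0.0593), -0.14 with Nr1d1 (exact permutation p = 0.460), -0.67 with Per3 (exact permutation p = 0.0874) and 0.42 with Clock (exact permutation p = 0.131). The adjusted p of these 4 were 0.223, 0.628, 0.262 and 0.324 (exact permutation). The rho of the same deviations was -0.57 with Dbp (exact p = 0.0736), -0.20 with Nr1d1 (exact p = 0.505), -0.54 with Per3 (exact p = 0.111) and 0.36 with Clock (exact p = 0.254), with adjusted p of 0.346 to 0.669. Leaving out the 2 libraries farthest in Arntl gave r of -0.39 with Dbp, -0.12 with Nr1d1, -0.51 with Per3 and 0.33 with Clock. Inside the codes the signs for Dbp, Per3 and Clock were those between codes. The sign for Nr1d1 was also the same, but its r of -0.14 was weak and did not keep its sign in every alternative. Without R62850_3 the relation of Arntl and Per3 passed within codes (r = -0.82, exact permutation, adjusted p = 0.0434). Of the 45 pairs, 0 passed after Benjamini-Hochberg adjustment by r or by rho in either family. Over code means a lone pair could not have passed, since the smallest p that 720 orders allow is 0.00139. Of the same pairs, 10 (code means) and 11 (within codes) had an unadjusted exact permutation p of r under 0.05. The lowest p that the 720 orders of 6 codes gave for any pair was 0.00972, for Nr1d2 and Dbp (r = 0.92, adjusted p = 0.201), and within codes the lowest was 0.00322, for Arntl and Cry1 (r = 0.60, adjusted p = 0.134).

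The further clock genes, a list of 26, were in the table in full, and 25 of them passed the filter on low counts. Of these, 18 of 25 differed between codes (edgeR), against 48.7% of all genes tested, with a median log2 range of code means of 0.98 against 0.58. Npas2, a close relative of Clock that also pairs with ARNTL, had the widest range, 3.92. It was at 10.5, 11.1 and 12.6 CPM in R62848 and at 1.27 and 0.303 CPM in R63494, where it had 21 and 7 counts (adjusted p = 0.000196). Like Arntl, it was also low in R62850 (1.42 to 2.40 CPM) and higher in R63289 (5.70 to 9.58 CPM).

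Tef and Hlf encode D-box binding factors of the same family as DBP. Tef was at 224 to 227 CPM in R62850 and 205 to 240 CPM in R63494, and at 87.6 to 103 CPM in R63289 and 92.4 to 112 CPM in R62848 (edgeR, adjusted p = 1.72e-07). Hlf was at 13.8 to 19.1 CPM in R62850, above all other libraries, and at 2.22 to 4.59 CPM in R62848, R63289 and R63500 (adjusted p = 1.92e-06). Ciart, which encodes the repressor CHRONO, was at 13.1 to 15.6 CPM in R62850 and 2.52 to 2.85 CPM in R63289, below every other library (adjusted p = 1.24e-07). Usp2, a deubiquitinase gene with clock-driven expression, was at 15.9 to 22.8 CPM in R62850 and 7.21 to 9.28 CPM in R63289 (adjusted p = 0.000185).

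Nfil3, which encodes a repressor at D-boxes, was at 17.7 to 23.6 CPM in R62848, above all other libraries, and at 5.70 to 13.3 CPM in R63496 (edgeR, adjusted p = 0.00439). Rora, which encodes a nuclear receptor that activates through ROREs, had a log2 range of code means of 0.24 and did not pass (adjusted p = 0.474). The clock repressor Bhlhe41 had its highest mean in R63500 (28.5 CPM) and its lowest in R63289 (13.4 CPM, adjusted p = 0.000172). Arntl2, the second gene of the Arntl family, had its highest mean in R63289 (22.4 CPM) and its lowest in R63500 (11.2 CPM, adjusted p = 0.000246), an order unlike that of Arntl. Timeless, which acts mainly at replication forks in mammals, was at 9.98 to 13.8 CPM in R63500 and 4.90 to 5.95 CPM in R62850 (adjusted p = 9.70e-05).

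Ccrn4l, the gene of the rhythmic phosphatase nocturnin, was at 20.5, 45.8 and 27.8 CPM in R63500 and at or below 20.2 CPM in every other library (edgeR, adjusted p = 4.48e-05). The RNA-binding protein gene Cirbp, which is induced by cold, was at 68.4 to 87.2 CPM in R63496 and 28.7 to 36.5 CPM in R62848 (adjusted p = 5.08e-07). The genes that did not pass were Rora, Cipc, Csnk1d, Csnk1e, Fbxl21, Tipin and Nampt. Csnk1d and Csnk1e encode the kinases that phosphorylate the PER proteins, and Csnk1d stayed between 158 and 201 CPM (adjusted p = 0.619). Bhlhe40, Btrc, Gsk3b, Wee1 and Rbm3 also passed. Rorb was not tested and had at most 8 counts in a library.

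**Figure D5:**
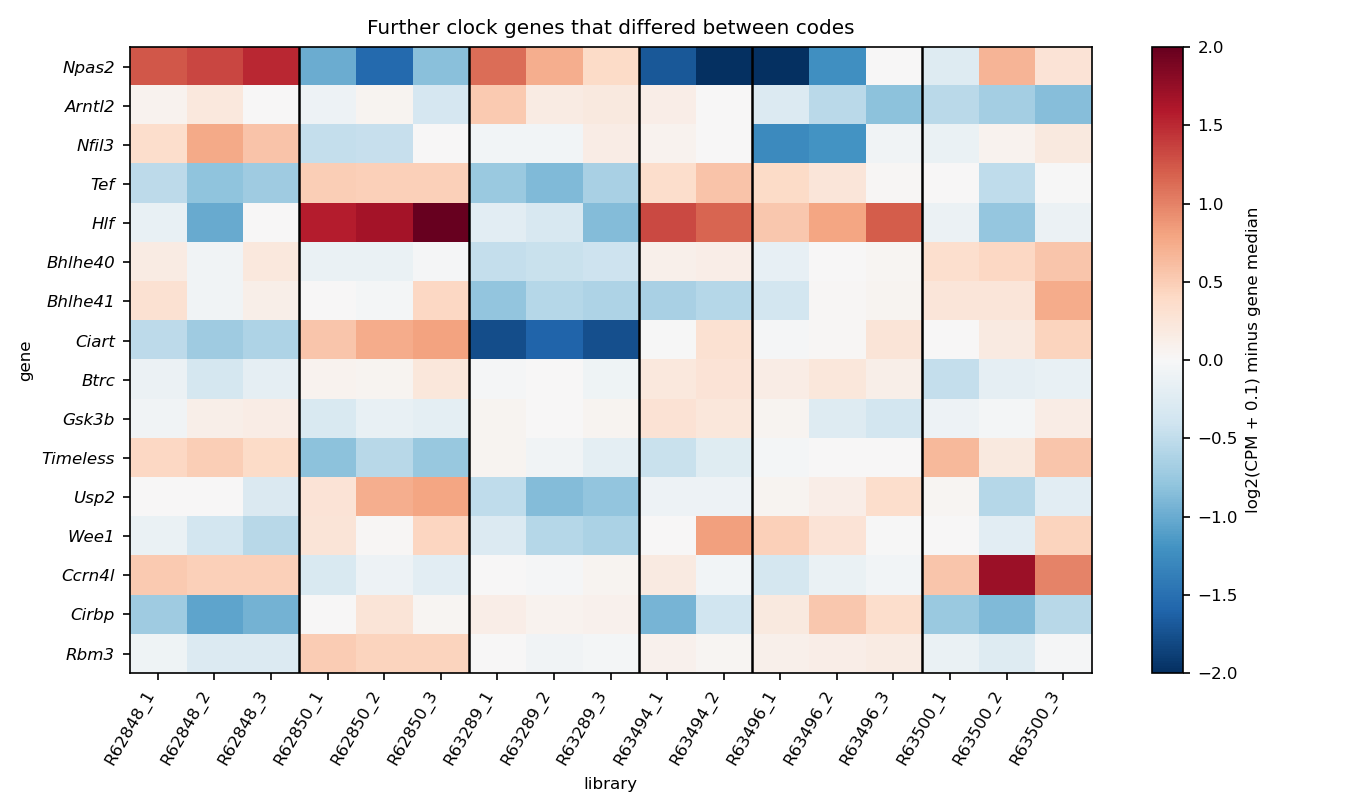
Log2(CPM + 0.1) minus the gene's median over 17 libraries for 16 of the 18 further clock genes that differed between codes, with genes as rows and libraries as columns; colours end at 2 in either direction. Npas2 is high in R62848 and low in R62850 and R63494, and Hlf, Tef and Ciart are high in R62850 and low in R63289.

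Genes with the pattern most like a clock gene were sought by the root mean square difference of log2 CPM, centred on each gene's median, over the 17 libraries. This measure is a description without a test, and libraries of a code are not independent points. It weighs the size of changes as well as their direction, so a gene of like direction but wider range can rank low. Among the 5 genes closest to Dbp were 1700003D09Rik (difference 0.33), Kcnn2 (0.36), 9030622O22Rik (0.37) and Ppp1r1b (0.37). Tef followed at rank 7, Nr1d1 at rank 32 and Nr1d2 at rank 56 of 15794 genes, whereas Hlf stood at rank 2768 and Per2 at rank 10359. Closest to the mirror image of Dbp were Hgf (0.35), which encodes hepatocyte growth factor, Steap4 (0.38) and Fam49a (0.39), and Arntl stood at rank 8.

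Closest to Arntl were Fam49a (0.44), Cald1 (0.47), Hsd11b1 (0.47), Ism1 (0.48) and Ero1l (0.48), with Nfil3 at rank 90 and Clock at rank 361. Cry1 stood only at rank 3848, Arntl2 at rank 8840 and Npas2 at rank 9132 of 15794 genes. Npas2, like Arntl, had its highest code means in R62848, R63289 and R63500. Its log2 range of code means was wider, 3.92 against 2.10, and it ranked behind Csnk1d (rank 6034), whose range was 0.17. Closest to the mirror image of Arntl were Pipox (0.42), Sord (0.42) and, at rank 3, Dbp (0.43), with Tef at rank 10. For Per2, a gene chosen for this search after its values were seen, the 5 closest included Sult5a1 (0.32), the co-chaperone gene Dnaja4 (0.39), Per3 (0.40) and Chordc1 (0.40), and Per1 stood at rank 12.

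Further lists of genes, from pathways that can drive Per transcription, were measured beside the members. In the glucocorticoid response list 7 of 9 tested genes differed between codes (edgeR, 48.7% of all genes tested), with the widest range for the metallothionein gene Mt2 (4.52 on the log2 scale). The list summed to 416 to 424 CPM in R63289, where the Per genes were lowest, and to 420 to 523 CPM in R63494, where Per2 and Per3 were highest. Fkbp5, a target of the glucocorticoid receptor named after its values were seen, had its lowest mean in R63289, 21.5 CPM, against 32.1 to 74.0 CPM in the other codes. The list was divided: Tsc22d3 and Zbtb16 also had their lowest means in R63289. Sgk1, Ddit4, Mt1, Mt2, Dusp1 and Pdk4 (not among the tested genes) had theirs in R63494, and Klf9 in R62850. Of the immediate early genes 8 of 9 differed, and Egr2 had the widest range (2.84). Their sum was 534 to 569 CPM in R63289 and 572 to 598 CPM in R63494. The part of either list in the levels of the Per genes was not tested.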

How the data were processed

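Gene expression was measured by RNA-seq in 17 mouse bile duct samples. Per the submitters' processing notes, the tools were STAR 2.6.1c, featureCounts and edgeR 3.40.2 with the build mm10; no source used here gives their roles, the annotation release or the strand setting. The values used are the deposited counts of reads per gene, whole and not normalized. Another 17 columns of per-sample values were not used here. The other column used is the table's gene length, an unscaled number of bases deposited by the authors.

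Columns could be tied to the group bile duct, not to single samples. Genes were kept with filterByExpr and an intercept-only design in edgeR 4.0.16 (15795 genes) and normalized with TMM factors. CPM and RPKM refer to counts of kept genes times the TMM factor, and log2 CPM have a prior count of 2. The RPKM depend on the table's gene lengths, which for Arntl (2904 bases) and Clock (7478 bases) are shorter than the exons of GENCODE M21 together (7523 and 13727 bases). Codes were compared in edgeR's quasi-likelihood F test (R 4.3.3), Benjamini-Hochberg adjusted over all kept genes, threshold 0.05. The script was tested on simulated data. Pairs of genes were tested with exact permutations: all 720 orders of 6 code means, and all 15552 arrangements within codes, 2-sided. Reads were counted with no correction for PCR copies known here, so a counting interval covers counting error only.

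All 10 members are described. Named further are genes among the 12 called genes of the further clock list with the widest ranges of code means (a choice made after the values were seen), the genes closest to Dbp and Arntl, and the widest member of each other list. Other list members are named where the members of a list were divided, also a choice made after the values were seen. A few genes that these rules name are not reported here. The members and lists were chosen with earlier results of these data known. Alternatives were DESeq2 size factors, no scaling, no filter, DESeq2 1.42.0, limma 3.58.1, a prior count of 0.5, and leaving out each library or code. The alternative with the authors' own values per length was not run, because those columns could not be tied to samples beside the counts.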

Additional observations from a re-analysis of the deposited data

How the results depend on the processing

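Results were recomputed with other scaling (DESeq2 size factors, or none beyond library totals), without the filter on low counts, with DESeq2's likelihood ratio test, with limma-trend and without each library or code in turn, 28 alternatives for the test between codes. The number of genes that differed between codes ranged from 6409 to 8728, against 7692, and the number of clock genes among them was 9 or 10. Cry2 was the gene lost, without R62850 or R63289; the other 9 were called under all 28. The number of pairs of clock genes that passed within codes was 0, and over the fits without a library or code it ranged from 0 to 1. That pair count was 1 without R62850_3, without R63289_2 or without R63289. Without R62850_3 the pair of Arntl and Per3 passed (r = -0.82, adjusted p = 0.0434, exact permutation). The cause was not tested. Over code means 0 pairs passed in the 20 alternatives, which says nothing of stability, because a lone pair cannot pass at the smallest p of 0.00139 (exact permutation). No code was left out there, since 5 code means are too few. Within codes, the r of Arntl and Nr1d1 lay between -0.28 and 0.0049 over the alternatives. The 5 genes closest to Dbp and the 5 closest to Arntl were the same 10 genes with DESeq2 size factors. No paired analysis was possible because the labels give 1 group and the columns carry no replicate numbers that pair samples. Arntl, at 48 to 335 counts, and Npas2, at 7 counts in its lowest library, are genes where depth limits precision, as are further genes of low counts such as Fbxl21 (at most 40 counts).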
